A study of Danio rerio with 8 samples.

Results

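The fibulins and the elastic microfibril genes were examined in strongly and weakly fluorescent *sp7*-GFP cells of zebrafish larvae. Members were the rows of the deposited P2 and P1 table whose gene symbol is one of 10 listed names, *fbln1*, *fbln2*, *fbln5*, *fbln7*, *efemp1*, *efemp2a*, *efemp2b*, *fbn2b*, *ltbp1* and *ltbp3*. Of these 10 names, 9 matched a row among the 32520 gene rows, *efemp1* being written there in capitals. No row carried the symbol *ltbp3*, which is not analysed here. Of the 9 rows, 8 passed the filter on low values, which asked for at least 10 reads in at least 3 libraries, and *efemp1* did not.

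Fibulins are secreted glycoproteins built of calcium-binding EGF-like repeats and a shared carboxy-terminal domain, and they connect basement membranes, elastic fibres and proteoglycan networks. Fibrillins polymerize into microfibrils, the thin filaments on which elastic fibres are assembled, and latent TGF-beta binding proteins hold the inactive growth factor in the matrix by attaching it to microfibrils and fibronectin. In human and mouse, loss of several of these proteins leads to lax skin, vascular defects or altered skeletal growth.

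The P2 group held 3 libraries of cells with high fluorescence (replicates 1, 2 and 4) and the P1 group 5 libraries of cells with low fluorescence (replicates 1, 2, 3, 5 and 6). Both came from larvae of the AB strain at 4 days post fertilization that carried the *Tg(sp7:sp7-GFP)* allele (ulg071 Tg), the offspring of a heterozygous transgenic parent crossed to a wild type one, and the labels name no treatment. In this line the GFP cDNA is inserted in the endogenous *sp7* gene, so the fluorescence gates follow *sp7* activity, and each library came from a pool of larvae (around 100 to 150 per dissociation) and from about 30000 to 50000 sorted cells. The labels do not say whether replicates came from separate clutches, so p-values measure the spread between these libraries.

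The P2 libraries held 7510312 to 10811492 gene reads and the P1 libraries 8528850 to 13034333 (n = 3 and 5, exact permutation p = 0.196, two-sided). The label calls all cells osteoblasts. Summed over 10 osteoblast markers, the P2 libraries had 49132 to 68410 normalized read counts and the P1 libraries 427 to 1506. These markers include *sp7*, whose activity the gates follow, so part of this difference was set by the sort. Marker genes of other cell types were read as well, and whether these reads came from such cells was not tested. The fin fold markers summed to 4.07 to 55.3 in P2 and 603 to 11021 in P1, with the maximum in P1 replicate 2, which also had the most keratinocyte marker reads (19875, against 349 to 2314 in P2 and 2157 to 3949 in the other P1 libraries). Skeletal muscle markers reached 10841 in P2 replicate 2, 23796 in P1 replicate 1 and 35720 in P1 replicate 6, while the rest of the libraries had between 160 and 2431. P2 replicate 2 thus stands apart from P2 replicates 1 and 4 in this respect, and also in keratinocyte, neuron and neutrophil sums. Those were 2314, 485 and 121 in P2 replicate 2, and at most 428, 113 and 6.79 in P2 replicates 1 and 4. Estimates without P2 replicate 2 are given for *fbln1*, *fbln2*, *fbn2b* and *ltbp1*.

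The question asked of the members was which of them separate strongly from weakly fluorescent cells. *efemp2a*, *fbln5* and *ltbp1* were higher in P2 and *efemp2b* was lower, so that 4 of the 8 tested members passed an adjusted p of 0.05 in limma, against a background of 14.6% of all 18475 genes tested in either direction, 7.57% higher and 7.05% lower in P2. The remaining 4, *fbln1*, *fbln2*, *fbln7* and *fbn2b*, did not pass. The median log2 fold change of P2 over P1 was 1.23 over the 8 members and 0.00 over all genes. The P2 and P1 libraries did not overlap for *fbln5*, *fbln7*, *efemp2a* and *efemp2b*, where 20.6% of all tested genes show no overlap (11.8% higher and 8.82% lower in P2). Count models on the recovered reads called 3 of the 8 with edgeR, against 10.7% of all genes, and 5 with DESeq2, against 20.1%. Values are read counts that the authors had divided by a size factor per library, and 1 was added to each before the log2 fold change was taken. With scaling by the median of ratios or by a trimmed mean, the median of all genes moved to -0.12, and 39.9% of the called genes were higher in P2 in place of 51.8%. All 8 members kept their direction under these scalings. In sorted pools of this kind, fewer cells of a type and less RNA per cell cannot be told apart.

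**Figure D1:**
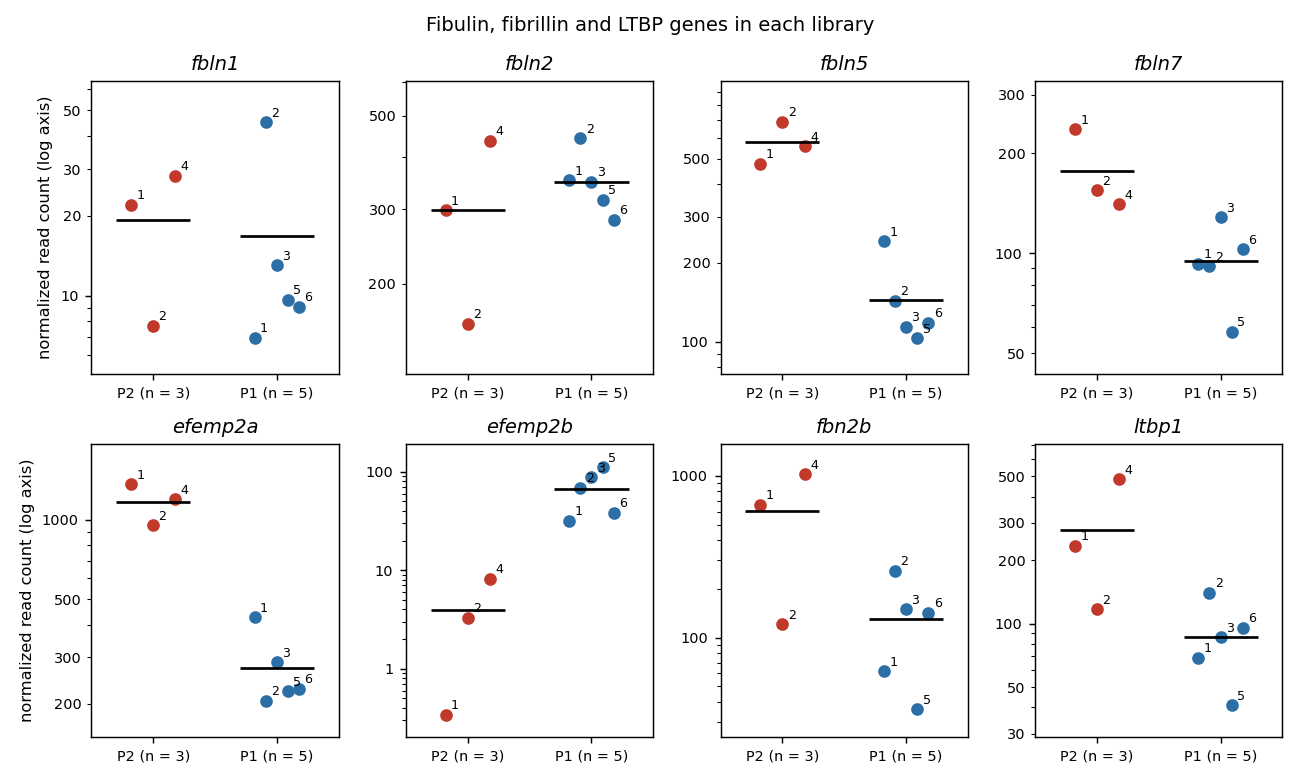
Normalized read count (log axis, with its own range in each panel) of the 8 tested genes in each library, P2 left and P1 right. Points are libraries numbered by replicate and the line is the group mean. The populations do not overlap for fbln5, fbln7, efemp2a and efemp2b, while P2 replicate 2 lies among the P1 libraries for fbln1, fbn2b and ltbp1.

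The short fibulins that build elastic fibres were examined first. *fbln5* (ENSDARG00000039273) encodes fibulin-5, which in mouse brings elastin and lysyl oxidase-like enzymes together on microfibrils. It had 479, 692 and 558 normalized read counts in P2 replicates 1, 2 and 4, and between 103.4 and 241.4 in P1 with a median of 118. Every P2 library was above every P1 library, and the mean was 4.00 times as high in P2 (577 ± 108, SD, n = 3) as in P1 (144 ± 56.3, SD, n = 5). On the log2 scale the difference was 2.05 (SE 0.32), with an adjusted p of 0.00163 in limma. It lay between 1.91 and 2.25 when any single library was left out, and the adjusted p stayed at or below 0.0101 in those 8 fits. The highest P1 value, 241, came from replicate 1.

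*efemp2a* (ENSDARG00000094324) is one of a pair of zebrafish genes for fibulin-4, a protein that in mouse is needed for elastic fibre formation and for the activation of lysyl oxidase, and so for the cross-linking of collagen. It had 1364, 953 and 1202 normalized read counts in P2 replicates 1, 2 and 4, and 427, 206, 288, 223 and 228 in P1 replicates 1, 2, 3, 5 and 6. The lowest P2 library (953) had more than any P1 library (at most 427), and the mean was 4.28 times as high in P2. The log2 fold change of 2.13 (SE 0.31) had an adjusted p of 0.00104 (limma). It varied little between libraries, with a coefficient of variation of 17.7% in P2 and 33.2% in P1, next to 18.7% and 39.1% for *fbln5*. Both genes were therefore high in all 3 P2 libraries, including replicate 2. In the 4 libraries of replicates 1 and 2 alone, neither passed, with adjusted p of 0.152 for *efemp2a* and 0.217 for *fbln5* (limma). With the replicate number as a block, these values were 0.0845 and 0.179. Over all genes, the fit without the block called 199 and the fit with it 454, in place of 2700.

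The second gene of this pair behaved in the opposite way. *efemp2b* (ENSDARG00000020811) had 0.339, 3.30 and 8.20 normalized read counts in P2 replicates 1, 2 and 4, which correspond to 1, 12 and 28 reads. In P1 replicates 1, 2, 3, 5 and 6 it had 31.7, 69.1, 87.4, 110.9 and 38.4, from 105 to 413 reads. All P1 libraries were above all P2 libraries, and the mean was 17.1-fold lower in P2. Its log2 fold change was -4.04 (SE 0.60, adjusted p = 0.00133, limma), and it was the member with the largest difference. Because P2 values are low, the size depends on the constant added before the logarithm, with -2.98 at a constant of 5 and -4.34 at 0.5. Leaving out P2 replicate 1, with its single read, gave -3.29 (adjusted p 0.00752), and *efemp2b* passed whichever single library was removed.

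As a share of the reads of both genes, *efemp2a* made up 99.98%, 99.7% and 99.3% in P2 replicates 1, 2 and 4, and 93.1%, 74.8%, 76.7%, 66.8% and 85.6% in P1 replicates 1, 2, 3, 5 and 6. The share was 99.7% ± 0.326 in P2 (SD, n = 3) and 79.4% ± 10.2 in P1 (SD, n = 5), a difference of 20.3 percentage points (exact permutation p = 0.0357, two-sided, where 0.0179 is the smallest p the 56 divisions allow). The p was 0.0571 without P1 replicate 2, 3, 5 or 6, so the call was lost in 4 of the 8 leave-one-out comparisons. Leaving out a library also leaves fewer divisions, so the p moves in coarse steps. It was 0.0286 without P1 replicate 1 and 0.0476 without any 1 P2 library, each the smallest p possible there. The difference stayed between 17.1 and 23.7 points. The 2 sets of libraries did not overlap. The share is not corrected for transcript length, and how reads shared by the pair were assigned is not written out. Summed markers of the corpuscles of Stannius, fin fold, endothelial cells and macrophages were, like *efemp2b*, lower in every P2 library than in any P1 library. For 3 markers of the corpuscles of Stannius the sums were 6.06 to 11.7 in P2 against 3737 to 11427 in P1. They were 208 to 352 against 550 to 821 for 11 endothelial markers and 32.9 to 87.3 against 308 to 360 for 15 macrophage marker rows, 2 of which were at 0 in every P2 library. Those of 6 neuron markers, 24.8 to 485 against 235 to 1468, overlapped. Within P1, *efemp2b* was highest in replicate 5 and lowest in replicate 1, and the corpuscle sums the other way round. Osteoblast sums within P1 were highest in replicate 1 (1506), then in replicate 6 (857), and lowest in replicate 3 (427). Endothelial sums were highest in replicate 5, as were those of neuron, erythroid, neutrophil, cardiac muscle, notochord and pigment markers. Of these, notochord and pigment sums were lowest in replicate 1, as *efemp2b* was, and endothelial sums were lowest in replicate 6. Fin fold sums were highest in replicate 2 and macrophage sums in replicate 6, and no other marker list peaked in replicate 5. Whether cells of these types gave *efemp2b* reads in P1 was not tested.

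**Figure D2:**
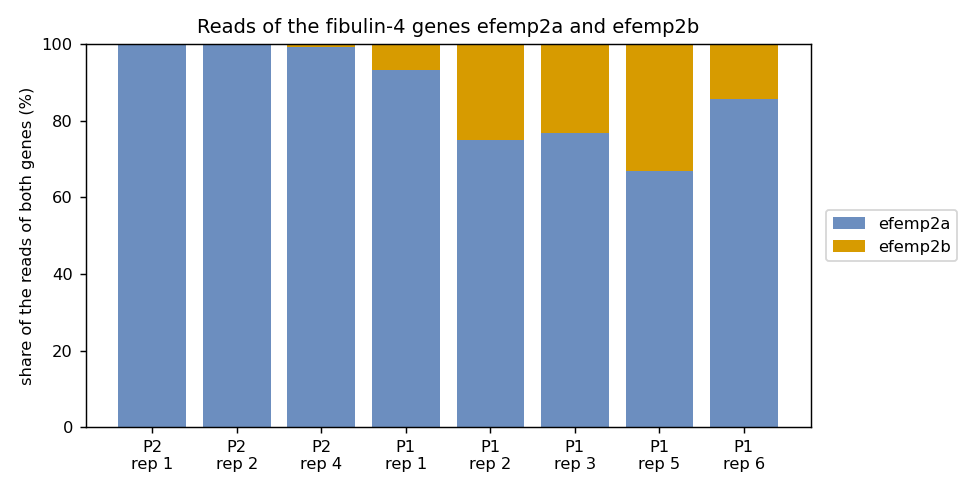
Share (%) of the summed reads of efemp2a and efemp2b that came from each gene, in the 3 P2 libraries and the 5 P1 libraries. efemp2b takes under 1% in each P2 library and between 6.91% and 33.2% in P1.

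The microfibril genes were next. *fbn2b* (ENSDARG00000098237) encodes a fibrillin, the structural subunit of microfibrils, and in zebrafish it is known for its role in fin fold and notochord morphogenesis. It had 662, 121 and 1027 normalized read counts in P2 replicates 1, 2 and 4, and 61.9, 258.9, 150.3, 36.0 and 142.1 in P1 replicates 1, 2, 3, 5 and 6. P2 replicates 1 and 4 were above all P1 libraries, while P2 replicate 2 lay below 3 of them. The mean was 4.65 times as high in P2 (603 ± 456, SD, n = 3) as in P1 (130 ± 87.5, SD, n = 5), but with this spread the test was not passed (log2 fold change 2.05, SE 0.70, adjusted p = 0.0656, limma). Its 95% interval was from 0.54 to 3.55. It passed once P2 replicate 2 was left out (2.97, adjusted p 0.00712, limma) and also without P1 replicate 2 (2.37, 0.0361).

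*ltbp1* (ENSDARG00000056922) encodes a latent TGF-beta binding protein, which helps to secrete and store the inactive ligand. It had 233, 117 and 484 normalized read counts in P2 replicates 1, 2 and 4, and 68.9, 139.9, 85.9, 41.1 and 95.6 in P1 replicates 1, 2, 3, 5 and 6. As with *fbn2b*, P2 replicates 1 and 4 exceeded every P1 library and P2 replicate 2 did not. The mean was 3.22 times as high in P2, and the log2 fold change of 1.55 (SE 0.46) passed narrowly (adjusted p = 0.0419, limma). The call depended on the libraries used. It was kept without P2 replicate 2 (2.06, adjusted p 0.00908) and without P1 replicate 2 (1.75, 0.0249), and lost in the other 6 fits that left out 1 library, where the adjusted p ranged from 0.0620 to 0.197. The lowest of those values, 1.04 on the log2 scale, came without P2 replicate 4. By edgeR the adjusted p was 0.0544, and with the median of ratios, trimmed mean or library totals as scaling it was 0.0595, 0.0589 and 0.0520 (limma).

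**Figure D3:**
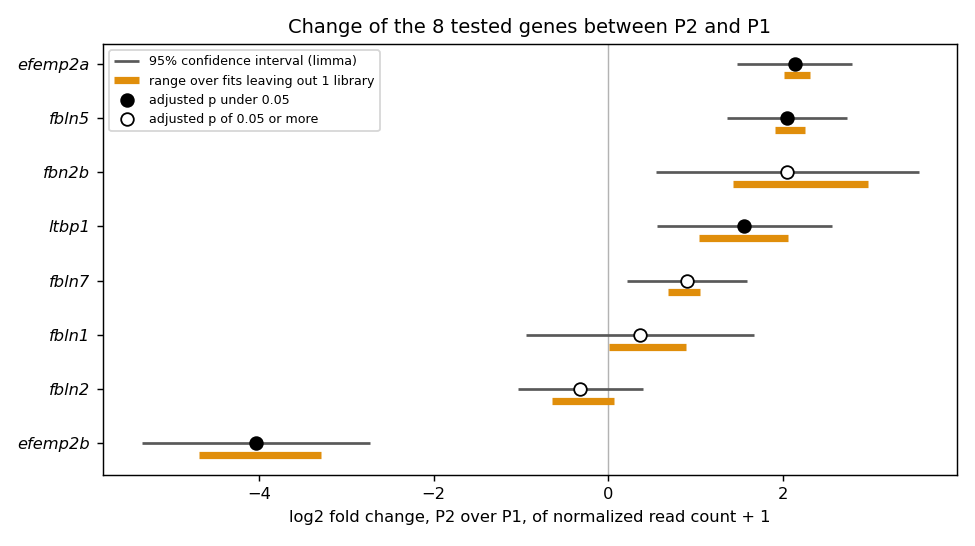
Log2 fold change of P2 over P1, on the log2(normalized read count + 1) scale, for the 8 tested genes. Grey lines are 95% confidence intervals from limma, orange bars the range over the 8 fits that leave out 1 library, and filled points passed an adjusted p of 0.05. The intervals of fbln1 and fbln2 span 0, and the leave-one-out range is narrow for fbln5 and efemp2a and wide for fbn2b.

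*fbln1* (ENSDARG00000103311), the founding member of the family and the one the study went on to mutate, encodes a fibulin of basement membranes that binds fibronectin. It had the fewest reads of the tested members in P1, with 23 to 244 per library. It stood at 22.1, 7.71 and 28.4 normalized read counts in P2 replicates 1, 2 and 4, and at 6.95, 45.2, 13.1, 9.66 and 9.10 in P1 replicates 1, 2, 3, 5 and 6. The groups overlapped in both directions, with the highest value of all in P1 replicate 2 and P2 replicate 2 lower than 4 of the P1 libraries. The 95% interval of its log2 fold change ran from -0.95 to 1.66 around 0.36 (adjusted p = 0.721, limma). That interval holds decreases as well as increases, so no direction is given for *fbln1*. The paper describes *fbln1* as rising further from P1 to P2, and in another passage as staying high in P2. The values here do not show such a rise beyond their spread. Without P2 replicate 2 the estimate was 0.89 (adjusted p 0.324). P1 replicate 2 is also the library with the most fin fold and keratinocyte marker reads, whose part in the *fbln1* value was not tested.

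*fbln2* (ENSDARG00000015156), whose product binds nidogen and proteoglycans in basement membranes, did not pass either. It had 298, 161 and 436 normalized read counts in P2 replicates 1, 2 and 4, and between 284 and 442 in P1 with a median of 349. P1 was narrowly spread, with a coefficient of variation of 17.0%, and P2 was not, with 46.2%. P2 over P1 gave -0.32 on the log2 scale, with a 95% interval from -1.03 to 0.39 (adjusted p = 0.537, limma). Without P2 replicate 2 this became 0.07.

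*fbln7* (ENSDARG00000089519) encodes a cell adhesion fibulin found in mouse in developing teeth and cartilage. It had 237, 155 and 140 normalized read counts in P2 replicates 1, 2 and 4, and between 58.0 and 128.4 in P1 with a median of 93.1. All P2 libraries were above all P1 libraries, the nearest pair being 140 in P2 replicate 4 and 128 in P1 replicate 3. The mean was 1.87 times as high in P2, yet its difference (0.90 on the log2 scale, SE 0.32) missed the threshold over all genes (adjusted p = 0.0733, limma), and none of the alternatives called it.

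*efemp1* (ENSDARG00000059121), the gene of fibulin-3, was hardly seen. It had 0, 0 and 2 reads in P2 replicates 1, 2 and 4, and 2, 0, 0, 6 and 0 reads in P1 replicates 1, 2, 3, 5 and 6. A count of 3 reads corresponds to between 0.556 and 1.02 normalized read counts in these libraries. A difference was not detectable at this depth (exact permutation p = 0.732, two-sided), and no fold is given. Such limits cover counting error only, since the cDNA was amplified without molecular identifiers.

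Set side by side over the libraries, the members fell into patterns that the group means do not show. *fbln1*, *fbln2*, *fbn2b* and *ltbp1* each had their highest P2 value in replicate 4 and their lowest in replicate 2, and each had its highest P1 value in replicate 2. The ratio of the highest to the lowest P2 library was 8.52 for *fbn2b*, 4.14 for *ltbp1*, 3.68 for *fbln1* and 2.71 for *fbln2*. For *fbln5*, *efemp2a* and *fbln7* that ratio was between 1.43 and 1.69, and *fbln5* had its highest value in P2 replicate 2. Summed chondrocyte markers had the same order within P2, with 16148, 10969 and 21800 normalized read counts in replicates 1, 2 and 4, but in P1 (12233 to 19731) they were lowest in replicate 2. Those of fibroblasts and tendon, at 11711, 6554 and 13349 in P2 and 4930 to 8463 in P1, did the same. Those of smooth muscle and pericytes stood at 778, 597 and 1568 in P2 and at 701 to 953 in P1, again with the lowest value of P1 in replicate 2. Their part in these patterns was not tested. The patterns are a description over 8 libraries, and no test was made of them.

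**Figure D4:**
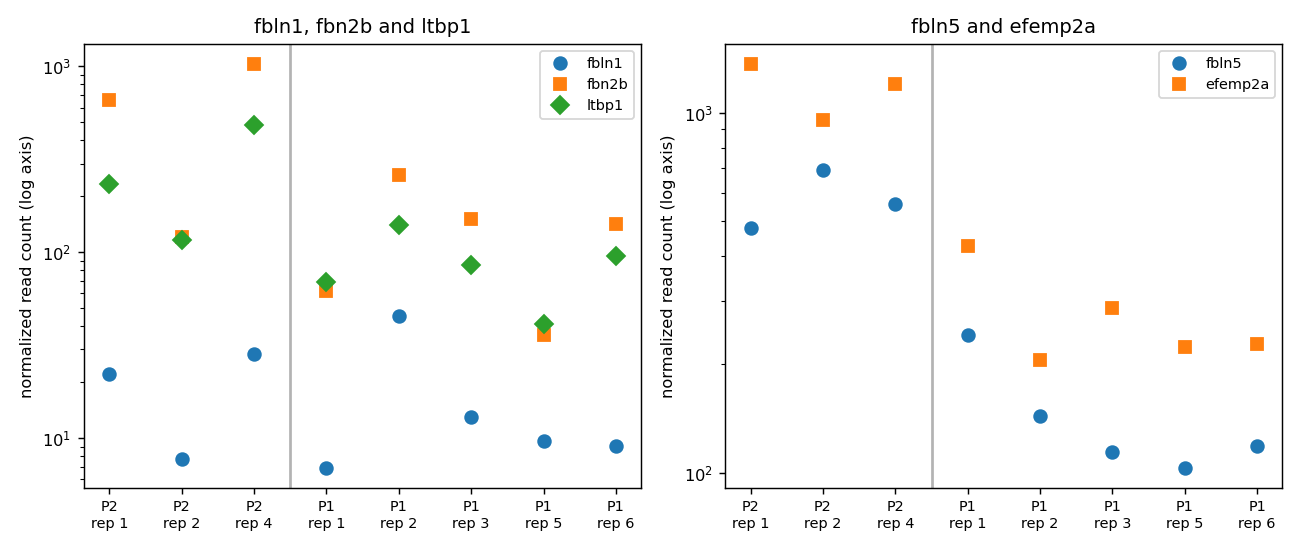
Normalized read count (log axis) of fbln1, fbn2b and ltbp1 (left panel) and of fbln5 and efemp2a (right panel) in each library, with the 3 P2 libraries left of the 5 P1 libraries. In the left panel the genes are lowest within P2 in replicate 2 and highest within P1 in replicate 2, whereas in the right panel every P2 library lies above every P1 library.

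Other genes of elastic fibres and microfibrils were then compared, to place the members among the proteins with which they assemble. Of 36 listed symbols 25 were matched to 27 rows, and of 25 rows tested 6 were higher in P2, 4 were lower and 15 did not pass. That is 40% called beside the 14.6% of all genes, with a median log2 fold change of 0.46 beside 0.00. Too low to test were the rows of *elnb*, an elastin gene, and *loxl5a*. *elnb* stood at 1.02, 0 and 0.585 normalized read counts in P2 replicates 1, 2 and 4, and at 0.185 to 8.32 in P1. The symbols *elna* and *lox* were among those without a row, so a difference in elastin or *lox* was not tested. The members and the lists compared here were chosen with earlier results of these data known, so their shares are a description and not a test. The lysyl oxidase-like genes, whose products cross-link collagen and elastin, made up 5 of the 6 that rose. *loxl4* had 2673 ± 248 normalized read counts in P2 (SD, n = 3) and 41.8 ± 27.4 in P1 (SD, n = 5), a log2 fold change of 6.21 (adjusted p = 6.64e-06, limma). A second row, written *LOXL4*, was at 85.3 ± 24.0 in P2 and 14.2 ± 7.44 in P1, *loxl3a* at 21.6 ± 9.98 in P2 and 4.46 ± 1.38 in P1, and *adamts10*, a protease that in human binds fibrillin, at 38.3, 20.6 and 168.0 in P2 replicates 1, 2 and 4 and 5.44 to 9.10 in P1. *loxl5b* and *loxl2a* were the other 2, called in 3 and 5 of the 8 fits that left out a library, and *loxl2a* did not pass with edgeR (adjusted p 0.0760).

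The genes that fell coded for fibre-associated glycoproteins and an elastin cross-linker. *mfap5*, a small microfibril-associated glycoprotein, had 0, 6 and 0 reads in P2 replicates 1, 2 and 4, while P1 had 19.0 ± 8.81 normalized read counts (SD, n = 5; adjusted p = 0.00163, limma). *emilin2b*, of the elastin microfibril interfacers, was at 2.04, 10.5 and 2.05 in P2 replicates 1, 2 and 4 and at 20.8 to 77.6 in P1, and *emilin3a* had at most 3 reads in P2 and 3.32 to 14.1 normalized read counts in P1. *loxl1*, which in mouse works with fibulin-5 in elastic fibre repair, had 33.3, 37.7 and 210.5 in P2 replicates 1, 2 and 4 and 177 to 281 in P1. It passed in limma (-1.84, adjusted p 0.0295) and did not with edgeR (0.103). *fbn2a*, the other fibrillin row, and *mfap2* overlapped between populations and did not pass (adjusted p 0.524 and 0.526, limma). Without P2 replicate 1, 6 genes of this list passed in place of 10. Over all genes, that fit called 901 in place of 2700.

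Genes of the TGF-beta pathway were compared because the ligand is stored on LTBPs and fibrillin. All 28 listed symbols had a row and 27 were tested, of which 7 were higher in P2, 1 was lower and 19 did not pass. That is 29.6% called beside 14.6% of all genes (7.57% higher and 7.05% lower), with a median log2 fold change of 0.73 beside 0.00. Ligand genes led this group. *tgfb2* had 107, 101 and 285 normalized read counts in P2 replicates 1, 2 and 4 and 4.29 to 28.0 in P1 (log2 fold change 3.48, SE 0.53, adjusted p = 0.00138, limma). *tgfb5*, a further ligand gene, was at 142 ± 34.8 in P2 (SD, n = 3) and 13.2 ± 5.47 in P1 (SD, n = 5), with a log2 fold change of 3.39. Downstream, *smad3b*, a signal-transducing Smad, had 84.9 ± 31.2 in P2 and 15.8 ± 7.33 in P1, and *skila*, a Smad-binding repressor that the pathway itself induces, 350 ± 185 in P2 and 72.8 ± 54.2 in P1. The groups overlapped for *skila*, with 138 in P2 replicate 2 and 155 in P1 replicate 2. It was called in 6 of the 8 fits that left out a library, and *smad3b* in all 8.

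The single gene of that list that fell was *itgb3b*, an integrin beta subunit, with 7.01 ± 4.33 normalized read counts in P2 and 22.5 ± 10.0 in P1 (adjusted p = 0.0492, limma, kept in 1 of the 8 fits that left out a library). The ligand gene *tgfb1a* and the pathway target *tgfbi* did not pass (adjusted p 0.681 and 0.934, limma). The number of genes of this list that passed changed with the libraries, at 4 without P2 replicate 1 or 4, 5 without P1 replicate 3 or 5, and 14 without P2 replicate 2. Calls over all genes moved in the same direction, from 2700 in the main fit. They were 901 and 1139 without P2 replicate 1 or 4, 1675 and 1436 without P1 replicate 3 or 5, and 4004 without P2 replicate 2.

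The last list held matrix partners of fibulins and fibrillins, namely fibronectins, nidogens, laminins, collagens IV and XVIII, tenascins, proteoglycans, link proteins and integrin receptors. Of 31 rows tested, 6 were higher in P2, 6 were lower and 19 did not pass. That is 38.7% called beside 14.6% of all genes (7.57% higher and 7.05% lower), with a median log2 fold change of 0.20 beside 0.00. Integrin and perlecan genes were among those that rose. *itga5*, the alpha subunit of the fibronectin receptor, had 257 ± 83.3 normalized read counts in P2 (SD, n = 3) and 90.4 ± 19.5 in P1 (SD, n = 5), *itgb1b* 134 ± 63.4 in P2 and 36.8 ± 9.63 in P1, *hspg2* (perlecan) 445 ± 203 in P2 and 136 ± 46.0 in P1, and *lama2* 36.4 ± 18.5 in P2 and 7.58 ± 4.03 in P1. Of the 8 fits that left out a library, *itga5*, *itgb1b* and *hspg2* were called in 6 and *lama2* in 5. The fibronectin genes *fn1a* and *fn1b* did not pass (adjusted p 0.197 and 0.422, limma).

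Among those that fell, *nid1a*, a nidogen of basement membranes, had 2.71, 20.9 and 18.1 normalized read counts in P2 replicates 1, 2 and 4 and 111 to 154 in P1, a log2 fold change of -3.50 (adjusted p = 0.00102, limma). A row written *TNC*, a tenascin, was at 11.8 ± 4.30 in P2 and 141 ± 64.4 in P1, and *hapln1b*, a link protein of hyaluronan and proteoglycan, at 10.5 ± 8.60 in P2 and 50.2 ± 18.6 in P1. *lama5*, a laminin chain gene, was at 14.3, 52.9 and 1.76 in P2 replicates 1, 2 and 4 and at 45.6 to 203.9 in P1, so that P2 replicate 2 overlapped with P1. It passed in limma (-2.98, adjusted p 0.0242), in 5 of the 8 fits that left out a library, and not with edgeR (0.0794). The collagen genes *col4a1* (log2 fold change -2.03, adjusted p 0.00179, limma) and *col18a1a* (-1.93, 0.00735) also fell. Both were called in all 8 of those fits. The other collagen IV gene of this list, *col4a2*, overlapped between populations and did not pass (-0.33, adjusted p 0.659, limma). It was at 19.7 ± 13.4 normalized read counts in P2 and 22.4 ± 6.81 in P1. *nid2a*, in contrast to *nid1a*, was higher in P2, by 1.41 on the log2 scale (adjusted p 0.00860, limma). Without P2 replicate 1 there were 5 calls in this list and without P2 replicate 4 there were 7, in place of 12. Over all genes, those fits called 901 and 1139 in place of 2700. Endothelial cells, keratinocytes and fin fold cells also make basement membrane. By the sums given above, endothelial and fin fold markers were lower in every P2 library than in any P1 library. Keratinocyte sums overlapped, with 2314 in P2 replicate 2 and 2157 in P1 replicate 1. The part of these cells in the decreases was not tested.

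**Figure D5:**
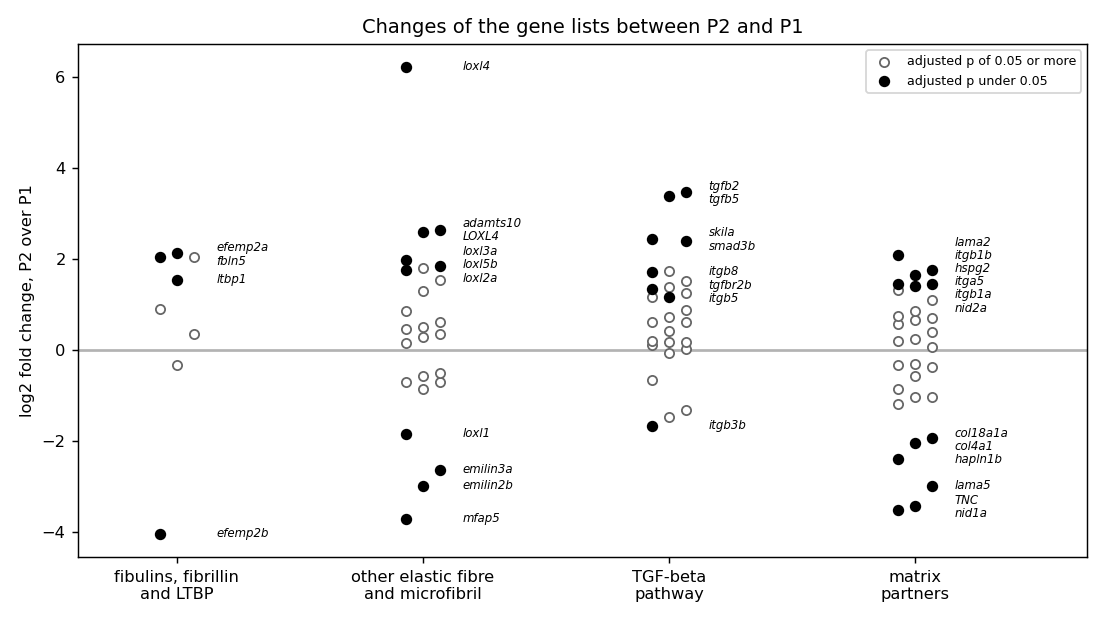
Log2 fold change of P2 over P1 for the 8 tested fibulin, fibrillin and LTBP genes, 25 other elastic fibre and microfibril rows, 27 TGF-beta pathway genes and 31 matrix partner rows. Filled, named points passed an adjusted p of 0.05 (limma) and open points did not. loxl4 is the highest point at 6.21 and efemp2b the lowest at -4.04.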

How the data were processed

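Full-length cDNA from sorted cells was amplified (SMART-Seq) and sequenced by the study in 8 libraries. Reads were mapped to GRCz11 with Ensembl release 103 in the nf-core rnaseq pipeline 3.0 at default parameters; strand use and the treatment of reads shared by close copies are not given in the sources used here. The authors deposited a table of gene signal, which holds read counts divided by 1 size factor per library (DESeq2 is named in the submitters' notes). In every library 100% of values were whole multiples of 1 read within 0.1 read, and whole reads were recovered on that basis. A second table repeats these columns beside 10 columns that match no sample, which were not used. The 2 tables of the authors' own comparisons (fold changes, p-values) were not used.

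The main test was limma 3.58.1 (R 4.3.3, variance trend) on log2(value + 1), over genes with at least 10 reads in at least 3 libraries, Benjamini-Hochberg adjusted over all 18475 genes. The alternatives were other scalings, constants of 0.5 and 5, filters, edgeR 4.0.16, DESeq2 1.42.0, voom, robust shrinkage, each library left out, and a replicate block. A fit without the 3 libraries with the most muscle marker reads was added after seeing the data. Single values were compared by exact permutation. The procedure was tested on simulated data. The members, lists and rule for named genes (all members, and from each list the called genes with the 4 largest changes in each direction) were chosen with earlier results of these data known. Of the other genes printed, those with no call or beyond the 4 were named after their values were seen. Symbols were matched without regard to case. Of the identifiers 89.8% were in a separate table of gene names, which calls the *fbn2b* identifier FBN3. No sequence or coordinate is given, because none of the files used here holds one for this build.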

Additional observations from a re-analysis of the deposited data

Results flagged for a closer look

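*fbln1* in P1 replicate 2, at 45.2 normalized read counts, stood far from the other P1 libraries, which lay between 6.95 and 13.1. Its gap to the nearest of them was 0.840 of the whole range, over a limit of 0.710 for 5 libraries. Of 9 such comparisons in P1 (the 8 tested members and the *efemp2a* share) this was the 1 past the limit. For normally distributed values, chance passes it in about 1 of 20. The comparison used normalized read counts and was not made on the log2 scale of the fits, where a single high value stands out less. Without P1 replicate 2 the log2 fold change of *fbln1* was 0.79 (adjusted p 0.295, limma).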

How the results depend on the processing

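Leaving out 1 library at a time gave 901 to 4004 called genes in place of 2700 (901 without P2 replicate 1, 4004 without P2 replicate 2) and 3 to 5 members in place of 4. For the other lists it gave 6 to 13 elastic fibre genes in place of 10, 4 to 14 TGF-beta genes in place of 8 and 5 to 16 matrix partners in place of 12. *fbln2* ranged from -0.65 to 0.067 on the log2 scale. The *efemp2a* share differed by 17.1 to 23.7 points, with an exact permutation p of 0.0571 without P1 replicate 2, 3, 5 or 6. Asking for 10 reads in every library gave 1741 called genes, and *efemp2b* then had no value. Limma-voom gave 1292 called genes and 4 TGF-beta genes, and DESeq2 gave 3685 called genes and 13 TGF-beta genes. *fbn2b* passed with DESeq2 (adjusted p 0.0138). Without the 3 libraries with the most muscle marker reads, chosen after seeing the data, 2579 genes and 5 members passed, *fbn2b* being at 2.87 (limma, adjusted p 0.0264), beside 9 elastic fibre, 9 TGF-beta and 13 partner genes.

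The labels do not say that replicate numbers mark a shared sort. For replicates 1 and 2, however, the P2 and P1 titles share a code that differs only in its last letter. The main test did not treat these libraries as pairs. Deviations of libraries of the same number correlated across genes at r = 0.001 for replicate 1 and -0.127 for replicate 2. Pairs of unequal numbers ranged from -0.259 to 0.210, so these values cannot decide whether libraries were paired. In the 4 libraries of replicates 1 and 2, a fit with the replicate block called 454 genes, 1 member (*efemp2b*), 3 elastic fibre genes, 1 TGF-beta gene and 3 partners. Without the block it called 199 genes, 1 member, 2 elastic fibre genes, 1 TGF-beta gene and 2 partners. In both of these fits *fbln1* was at -0.44, and the block left the mean difference of the *efemp2a* share at 15.9 points. The fewer calls come with fewer libraries. Values near the floor of 3 reads, as for *efemp1* in both groups, *emilin3a* in P2 and *efemp2b* in P2 replicate 1, are limited by depth. The causes of the other changes were not tested.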

Other observations

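Some symbols of these lists occur on more than 1 row, and the rows of *tnc* did not move alike. *TNC* (in capitals) was at 14.6, 6.88 and 14.1 normalized read counts in P2 replicates 1, 2 and 4 and at 81.3 to 237.3 in P1, a log2 fold change of -3.41 (adjusted p 0.000290, limma). *tnc* was at 1874, 1110 and 2210 in P2 replicates 1, 2 and 4 and at 1041 to 1662 in P1, with a log2 fold change of 0.25 (adjusted p 0.642, limma). Both *LOXL4* and *loxl4* rose, by 2.61 and 6.21 on the log2 scale. The rows of *hmcn2* were at 1.54 and 0.52, and neither passed (adjusted p 0.0821 and 0.326, limma). Whether reads were divided between such rows by their sequence was not tested. These rows were singled out after their values were seen.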
